A study of Mus musculus with 12 samples.

Results

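Mouse embryonic fibroblasts (MEFs) take up glucose, break it down to pyruvate and lactate by glycolysis, and switch on many of the same genes when oxygen is scarce. The genes described here are 35 symbols of that program: glucose and lactate transporters, the enzymes from hexokinase to lactate dehydrogenase, regulators of glycolytic flux, the oxygen sensors and the transcription factor HIF1A, and hypoxia targets outside glycolysis. They were chosen by name from the deposited table of gene expression values and took up 36 of its 54532 rows, because Aldoa stands on 2 rows (ENSMUSG00000030695 and ENSMUSG00000114515). The rule itself uses no measured value, but the members were chosen with earlier results of these data known.

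The cells came in 4 groups of 3 libraries each. CHIP-KO MEFs, which lack the ubiquitin ligase CHIP encoded by Stub1, were kept for 1 hour at 43 °C or left without heat, and wild-type MEFs were treated in the same 2 ways. RNA was captured by its poly(A) tail and sequenced, and levels are given as FPKM, fragments scaled to the length of the gene model and the depth of the library. All heated cells had the same single exposure, the labels name neither a recovery time nor how the CHIP-KO cells were derived, and they do not say that replicates were separate cultures, so p-values measure the spread between these libraries only.

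Glucose enters fibroblasts mainly through GLUT1 (Slc2a1) and is split in a chain of cytosolic reactions that yields ATP and pyruvate, which lactate dehydrogenase turns into lactate for export. Most steps can be carried out by several isoenzymes with different tissue patterns, such as the widespread enolase Eno1 and the neuronal Eno2. With oxygen present, prolyl hydroxylases of the EGLN family mark HIF1A for destruction; when oxygen falls, HIF1A is stable, binds a short DNA core (ACGTG or GCGTG) and raises transcription of the transporters, most of the enzymes and genes such as Vegfa.

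Each library held 15591924 to 26954112 fragments assigned to genes. Stub1 stood at 1.17, 0.996 and 1.06 FPKM in heated and 1.17, 1.02 and 0.722 FPKM in unheated CHIP-KO cells, against 54.4, 53.8 and 57.9 FPKM in heated and 64.1, 63.4 and 57.5 FPKM in unheated wild-type cells, so its level went with the labelled genotype. The summed level of 10 fibroblast markers was 2922 to 3474 FPKM in CHIP-KO libraries and 1459 to 2210 FPKM in wild-type libraries, with Lum under 1 FPKM throughout; without heat 7 of the 9 tested were higher and 2 lower in CHIP-KO cells, against 23.9% and 24.5% of all tested genes. Of the 6 epithelial markers, Cdh1, Epcam, Krt8 and Krt18 were under 1 FPKM in every library and Cldn4 reached 1.38 FPKM in 1. The epithelial Krt19 was at 3.33 to 19.9 FPKM in all libraries, with changes of 0.73 with heat in CHIP-KO cells, -1.67 with heat in wild-type cells, 1.87 for CHIP-KO against wild type after heat and -0.53 without, all called. Summed over the 6 epithelial markers, levels were 15.5 to 22.3 FPKM in heated and 10.1 to 10.5 FPKM in unheated CHIP-KO cells, against 4.54 to 5.58 FPKM in heated and 12.4 to 17.3 FPKM in unheated wild-type cells. The 6 macrophage and leukocyte markers summed to 10.1 to 11.97 FPKM in heated and 6.13 to 6.90 FPKM in unheated CHIP-KO cells, against 14.7 to 17.6 FPKM in heated and 6.10 to 6.22 FPKM in unheated wild-type cells. Of these, Cd68 (1.72 to 15.4 FPKM) was higher with heat in both genotypes and Cd14 (1.17 to 4.36 FPKM) lower, while Ptprc, Csf1r, Adgre1 and Aif1 were under 1 FPKM throughout. Of the 6 skeletal muscle markers only Des reached 1 FPKM, in the heated wild-type libraries (1.503 to 2.13 FPKM). All 6 endothelial and 6 erythroid markers were under 1 FPKM in every library. Wild-type replicates 1, unheated and heated, stood apart from the other libraries of their groups and received library weights of 0.192 and 0.165, so results that depend on them are named below. The part of the marker differences in the results below was not tested, and in bulk RNA fewer cells of a type and less RNA per cell cannot be told apart.

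Genes were tested when they reached 1 FPKM in at least 3 of the 12 libraries. Of the 36 rows, 34 met this. Slc2a3, a high-affinity glucose transporter, was at 0.0715 to 0.337 FPKM and Ankrd37, a hypoxia-induced ankyrin repeat gene, at 0.361 to 1.44 FPKM, and neither was tested. Slc16a3 reached 1 FPKM in CHIP-KO libraries only and Adm in wild-type libraries only. Ldhb did so in the 6 CHIP-KO and the 3 heated wild-type libraries, and Aldoc in the 3 heated wild-type libraries and 1 unheated one. Slc16a3, Adm and Aldoc were thus tested only through the genotype where they are high. Their differences between genotypes, and the change of Aldoc with heat in wild type, are therefore not independent of the filter. A change is the difference of mean log2(FPKM + 1) between groups, given with its standard error from limma, and a gene counts as called where its p, adjusted by Benjamini and Hochberg's method over all 13023 tested genes, is under 0.05. On this scale the change of genes with few FPKM is understated.

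Heat lowered most of the glycolytic enzymes in wild-type cells. There, 27 of the 34 tested rows were called with heat, 10 higher and 17 lower, while 58.7% of all tested genes were called (28.1% higher and 30.5% lower). Of the 17 glycolytic enzyme genes, 4 were higher and 10 lower. In CHIP-KO cells 9 of the 34 rows were called with heat, 7 higher and 2 lower, against 20.0% of all genes (8.65% higher and 11.4% lower), and the enzymes among them were Pkm, Aldoa and Gpi1, all higher. Those 3 rises lost their call and changed sign when libraries were scaled to an equal sum of FPKM. That scaling moved the median change of all genes with heat to -0.29 in CHIP-KO and -0.21 in wild-type cells, against -0.0018 and -0.016 without it. Under it the members counted 1 higher and 18 lower with heat in CHIP-KO cells, where 4.35% of all genes were higher and 62.6% lower, so the share of members lower (18 of 34) was below that of all genes. In wild-type cells they counted 6 higher and 19 lower, where 18.3% and 47.4% of all genes were so. Under quantile normalization 3 were higher and 3 lower in CHIP-KO cells, against 7.47% and 13.9% of all genes. The count of 9 in CHIP-KO cells also became 5 without unheated CHIP-KO replicate 2 (12.5% of all genes called) or 3 (12.2%) and 14 without both wild-type replicates 1 (33.9%), so it moved with the share of all genes.

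Without heat, CHIP-KO cells had lower levels of most glycolytic enzymes than wild-type cells. Of the 34 rows, 22 were called, 5 higher and 17 lower, against 48.5% of all genes (23.9% higher and 24.5% lower), and the enzymes counted 3 higher and 10 lower. After heat 21 rows were called, 12 higher and 9 lower in CHIP-KO cells, against 42.4% of all genes (23.3% higher and 19.1% lower), with 9 enzymes higher and 2 lower. The change with heat itself differed between genotypes, CHIP-KO minus wild type, for 18 rows, 13 more positive and 5 more negative, against 35.2% of all genes (17.9% and 17.3%). The unheated wild-type libraries enter both the heat comparison in wild type and the unheated comparison of genotypes, so both sets of values share their error.

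The median change over the 34 tested rows was -0.23 with heat in wild type, 0.11 with heat in CHIP-KO cells, -0.32 for CHIP-KO against wild type without heat and 0.10 after heat. The medians over all tested genes lay between -0.016 and 0.013. Groups did not overlap for 27 of the 34 rows with heat in wild type and for 21 in CHIP-KO cells, where 60.4% and 48.7% of all genes did not overlap. They did not overlap for 27 rows between genotypes without heat and 21 after heat, where 61.2% and 50.4% of all genes did not.

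**Figure D1:**
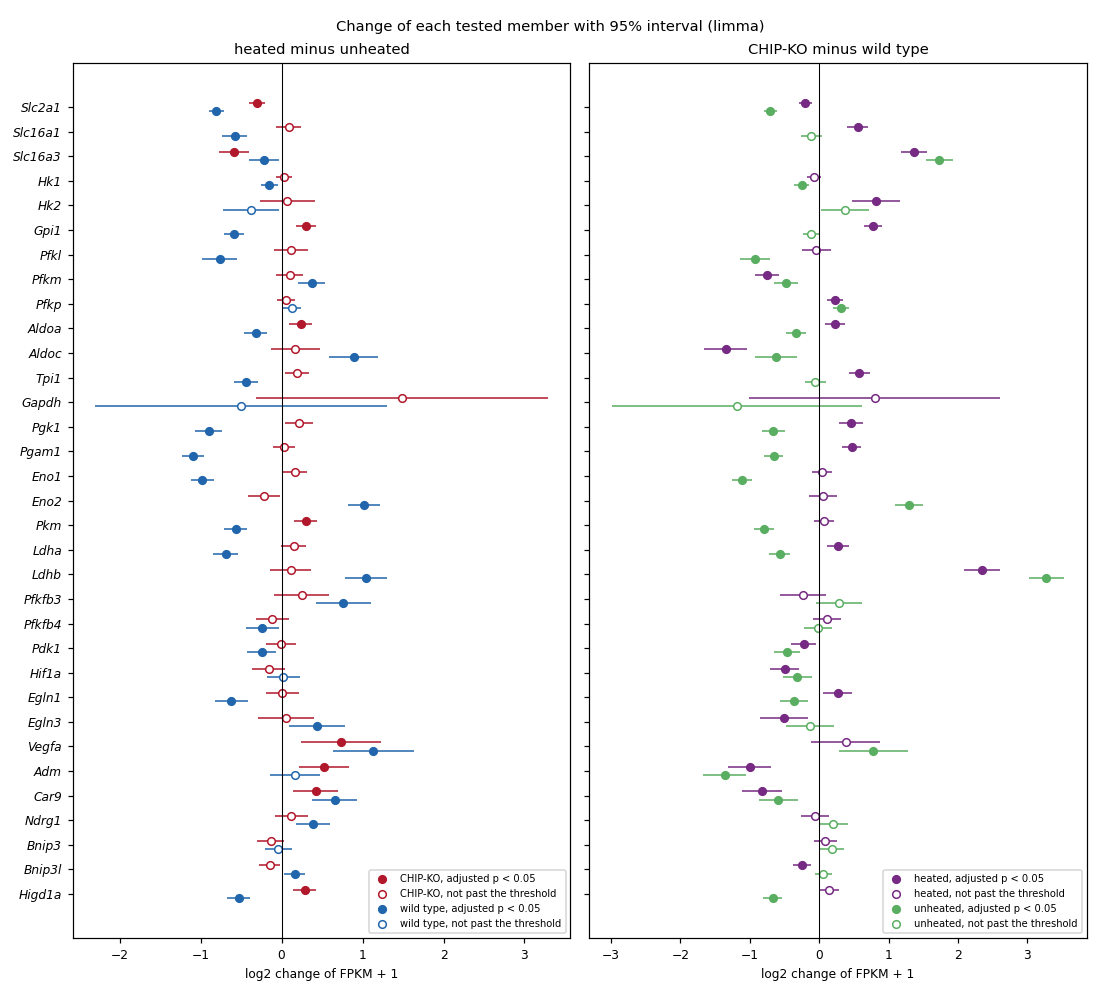
Change of each tested member on the log2(FPKM + 1) scale with its 95% interval, with heat (left, CHIP-KO above wild type for each gene) and between genotypes (right, heated above unheated); filled points passed an adjusted p of 0.05. With heat, most enzymes from Gpi1 to Ldha lie left of 0 in wild type and near or right of 0 in CHIP-KO cells (under equal-sum scaling, not drawn, 15 of the 17 enzymes lie left of 0 there), and the interval of Gapdh is the widest.

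The 7 promoter windows that follow show the hypoxia core in 7 of the members, of which Bnip3 passed no test. Each is 40 bases of a RefSeq promoter (build GRCm38.p6) before its start site, read along the gene's strand, with ACGTG or GCGTG, on either strand, in capitals. Of these, 5 belong to genes that were lower with heat in wild type (Pgk1, Ldha, Pgam1, Pfkl and Slc2a1), and Hk2 and Bnip3 are hypoxia targets that did not pass the test there. For the printed Ldha and Pgam1 promoters, the first 40 transcribed bases were not found in a GENCODE transcript of the gene. Those of another Ldha promoter, not printed, were found. The Ldha and Pfkl windows lie within the gene spans given below, and the Slc2a1 window reaches into its own.
Pgk1, chrX:106186940-106186979, + strand: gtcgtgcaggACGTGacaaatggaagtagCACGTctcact
Ldha, chr7:46845744-46845783, + strand: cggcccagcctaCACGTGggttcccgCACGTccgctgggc
Pgam1, chr19:41911751-41911790, + strand: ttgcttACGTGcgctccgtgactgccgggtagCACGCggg
Pfkl, chr10:78009883-78009922, - strand: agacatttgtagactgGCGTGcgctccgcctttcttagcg
Slc2a1, chr4:119108675-119108714, + strand: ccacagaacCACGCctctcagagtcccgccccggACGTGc
Hk2, chr6:82774485-82774524, - strand: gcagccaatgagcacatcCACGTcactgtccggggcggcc
Bnip3, chr7:138909592-138909631, - strand: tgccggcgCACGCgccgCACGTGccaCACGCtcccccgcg

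The table held promoters for 32 of the 35 symbols, 46 promoters in all, each from 250 bases before to 50 bases after the start. ACGTG or GCGTG on either strand was found in 37 of the 46 (80.4%), against 43.8% of all 32851 promoters; CACGTG was read as ACGTG on both strands. Counted by gene, with a core in any of its promoters, it was 29 of 32 members (90.6%), against 46.7% of all 27025 genes. Among members lower with heat in wild type, 15 of 17 genes with a promoter had a core, all but Tpi1 and Gpi1. Of the members higher there, 7 of 8 had one, all but Eno2, and so did 6 of 6 that were not called. The short heat shock element motifs GAANNTTC and TTCNNGAA were found in 3 of the 46 promoters (6.52%), against 15.1% of all. The set of all promoters was not limited to tested genes and not matched to the members in base composition. A match is a description of the letters in this window and does not show binding.

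Among the transporters, Slc2a1, which encodes the glucose transporter GLUT1 (chr4:119108711-119137983, + strand), was highest in unheated wild-type cells. It stood at 18.8, 18.95 and 18.4 FPKM in heated CHIP-KO cells, 23.6, 23.3 and 23.01 in unheated CHIP-KO cells, 20.6, 22.03 and 22.3 in heated wild-type cells and 39.4, 38.7 and 37.7 in unheated wild-type cells. No group overlapped another. It fell with heat in both genotypes, by less in CHIP-KO cells (-0.30 ± 0.04, adjusted p = 9.80e-04) than in wild-type cells (-0.81 ± 0.04, adjusted p = 1.20e-07), and the test of that difference gave 0.50 ± 0.06, adjusted p = 1.20e-04. Without heat it was lower in CHIP-KO than in wild-type cells (-0.70 ± 0.04, adjusted p = 2.06e-07), and after heat by a smaller margin (-0.20 ± 0.04, adjusted p = 0.00378).

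The lactate exporters MCT1 (Slc16a1) and MCT4 (Slc16a3) had different patterns. Slc16a1 (chr3:104638668-104658462, + strand) stood at 19.3, 19.98 and 18.9 FPKM in heated CHIP-KO cells, 18.7, 18.6 and 17.3 in unheated CHIP-KO cells, 12.4, 14.02 and 12.3 in heated wild-type cells and 21.5, 19.8 and 18.1 in unheated wild-type cells. Only the heated wild-type libraries were low, all under the 9 others, and the fall with heat was called in wild type (-0.58 ± 0.07, adjusted p = 3.69e-05) and not in CHIP-KO cells (95% interval -0.07 to 0.24), with a difference of 0.67 ± 0.10, adjusted p = 4.12e-04. Slc16a3 (chr11:120948480-120960868, + strand), the form that hypoxia induces, stood at 1.995, 2.46 and 2.42 FPKM in heated CHIP-KO cells, 4.23, 3.81 and 3.75 in unheated CHIP-KO cells, 0.331, 0.230 and 0.267 in heated wild-type cells and 0.525, 0.394 and 0.531 in unheated wild-type cells. All 6 CHIP-KO libraries lay above all 6 wild-type ones, with changes of 1.36 ± 0.09, adjusted p = 3.34e-07 after heat and 1.73 ± 0.09, adjusted p = 2.97e-08 without. Within CHIP-KO cells it fell with heat (-0.59 ± 0.09, adjusted p = 0.00101). Its fall in wild type, at under 1 FPKM, was -0.22 ± 0.09, adjusted p = 0.0485 (over all alternatives -0.83 to -0.18, adjusted p up to 0.122). This call was lost in each of 9 fits that left out 1 library, unheated wild-type replicate 1 among them. The test of different changes with heat (-0.37 ± 0.12, adjusted p = 0.0352; over all alternatives -0.56 to -0.01, adjusted p up to 0.973) passed in 9 of 22 alternatives.

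Of the enzymes of upper glycolysis, glucose-6-phosphate isomerase (Gpi1, chr7:34201330-34230336, - strand) moved in opposite directions with heat in the 2 genotypes, except under equal-sum scaling. It stood at 32.99, 37.5 and 35.3 FPKM in heated CHIP-KO cells, 28.2, 29.2 and 27.6 in unheated CHIP-KO cells, 18.9, 21.2 and 20.3 in heated wild-type cells and 30.1, 31.05 and 30.9 in unheated wild-type cells. Each heated group lay outside the range of its unheated group, above it in CHIP-KO and below it in wild-type cells. The changes were 0.30 ± 0.06, adjusted p = 0.00420 with heat in CHIP-KO cells and -0.59 ± 0.06, adjusted p = 8.30e-06 in wild-type cells, and their difference 0.89 ± 0.08, adjusted p = 1.59e-05; under equal-sum scaling the first turned to -0.025 and lost its call. Without heat the genotypes differed by -0.11 ± 0.06, adjusted p = 0.132, which was not called.

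Hexokinases trap glucose in the cell by phosphorylating it. Hk1, the widespread form, averaged 27.3 ± 0.984 FPKM in heated CHIP-KO cells, 26.7 ± 0.554 in unheated CHIP-KO cells, 28.8 ± 1.35 in heated wild-type cells and 32.02 ± 0.184 in unheated wild-type cells (SD, n = 3 each). It was lower in CHIP-KO than in wild-type cells without heat (-0.25 ± 0.05, adjusted p = 0.00107), and its small fall with heat in wild type (-0.15 ± 0.05, adjusted p = 0.0176; over all alternatives -0.38 to -0.10, adjusted p up to 0.0803) was not called without both wild-type replicates 1. Hk2, the form that insulin and hypoxia induce (chr6:82725025-82774454, - strand), stood at 8.18, 6.42 and 5.73 FPKM in heated CHIP-KO cells, 6.51, 6.55 and 5.96 in unheated CHIP-KO cells, 4.63, 2.96 and 2.72 in heated wild-type cells and 5.07, 4.98 and 4.0001 in unheated wild-type cells. All heated CHIP-KO libraries were above the heated wild-type ones (0.82 ± 0.16, adjusted p = 0.00143). Its change with heat in wild type was -0.38 ± 0.16, adjusted p = 0.0569, with replicate 1 within the unheated range and replicates 2 and 3 below it.

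Phosphofructokinase, the committed step, has liver (Pfkl), muscle (Pfkm) and platelet (Pfkp) forms. Pfkl (chr10:77986947-78010083, - strand) stood at 23.9, 30.1 and 28.6 FPKM in heated CHIP-KO cells, 24.2, 25.3 and 26.3 in unheated CHIP-KO cells, 24.5, 29.6 and 31.003 in heated wild-type cells and 50.6, 49.1 and 46.7 in unheated wild-type cells. Unheated wild-type cells were above every other library, and the other 3 groups overlapped. Pfkl fell with heat in wild type (-0.77 ± 0.10, adjusted p = 4.86e-05) and differed from the change in CHIP-KO cells by 0.88 ± 0.14, adjusted p = 5.22e-04. Without heat it was lower in CHIP-KO cells (-0.92 ± 0.10, adjusted p = 1.40e-05), and after heat the difference was -0.04 ± 0.10 (95% interval -0.25 to 0.17).

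Pfkm (chr15:98092589-98132451, + strand) went the other way with heat in wild type. It stood at 32.9, 34.9 and 36.5 FPKM in heated CHIP-KO cells, 31.9, 32.1 and 33.1 in unheated CHIP-KO cells, 51.9, 62.4 and 63.8 in heated wild-type cells and 48.1, 43.97 and 44.4 in unheated wild-type cells. Heated wild-type cells were highest and all CHIP-KO libraries lay below all wild-type ones. The changes were 0.37 ± 0.08, adjusted p = 0.00150 with heat in wild type, -0.75 ± 0.08, adjusted p = 1.51e-05 for CHIP-KO against wild type after heat and -0.48 ± 0.08, adjusted p = 3.61e-04 without. Its rise with heat in wild type was not called under equal-sum scaling. Pfkp was low throughout, at 3.20 to 4.78 FPKM, and was higher in CHIP-KO than in wild-type cells after heat (0.23 ± 0.05, adjusted p = 0.00409) and without (0.31 ± 0.05, adjusted p = 5.84e-04).

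Aldolase A (Aldoa, ENSMUSG00000030695, chr7:126795234-126800751, - strand) is the main aldolase of these cells and averaged 209 ± 8.96 FPKM in heated CHIP-KO cells, 177 ± 2.08 in unheated CHIP-KO cells, 179 ± 15.5 in heated wild-type cells and 223 ± 3.61 in unheated wild-type cells (SD, n = 3 each). It fell with heat in wild type (-0.32 ± 0.06, adjusted p = 0.00134), while its rise in CHIP-KO cells (0.24 ± 0.06, adjusted p = 0.0244; over all alternatives -0.10 to 0.27, adjusted p up to 0.937) was lost when any of the 3 unheated CHIP-KO libraries or heated replicate 2 or 3 was left out and turned to -0.10 under equal-sum scaling. The difference between these changes was 0.56 ± 0.09, adjusted p = 7.54e-04. Without heat Aldoa was lower in CHIP-KO cells (-0.33 ± 0.06, adjusted p = 0.00143); its higher level after heat (0.23 ± 0.06, adjusted p = 0.0149; over all alternatives 0.09 to 0.28, adjusted p up to 0.147) was not called without heated CHIP-KO replicate 2. The second Aldoa row, which lies next to the first on the same strand, was at 1.45 to 2.89 FPKM and passed no test; reads of the 2 rows may not be told apart.

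Aldoc, the brain aldolase (chr11:78322968-78327781, + strand), was scarce. It stood at 0.612, 0.478 and 0.498 FPKM in heated CHIP-KO cells, 0.368, 0.341 and 0.370 in unheated CHIP-KO cells, 2.79, 2.73 and 3.17 in heated wild-type cells and 0.739, 0.971 and 1.69 in unheated wild-type cells. The heated wild-type libraries were above all others, and all CHIP-KO libraries were below all wild-type ones. It rose with heat in wild type (0.89 ± 0.14, adjusted p = 2.24e-04) and was lower in CHIP-KO than in wild-type cells after heat (-1.35 ± 0.14, adjusted p = 1.59e-05) and without (-0.63 ± 0.14, adjusted p = 0.00314). The test of different changes with heat gave -0.72 ± 0.19, adjusted p = 0.0143, not called with a pseudocount of 0.1 or on recovered fragments.

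Triose-phosphate isomerase (Tpi1, chr6:124810586-124814296, - strand) stood at 236, 266 and 259 FPKM in heated CHIP-KO cells, 228, 215 and 223 in unheated CHIP-KO cells, 154, 180.3 and 175 in heated wild-type cells and 238, 228 and 225 in unheated wild-type cells. Heated wild-type cells were below every other library, and the unheated genotypes overlapped. Tpi1 fell with heat in wild type (-0.44 ± 0.07, adjusted p = 2.57e-04), differed by 0.58 ± 0.07, adjusted p = 5.60e-05 between genotypes after heat and by -0.05 ± 0.07 without (95% interval -0.21 to 0.10). The difference between the changes with heat was 0.63 ± 0.10, adjusted p = 5.57e-04.

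**Figure D2:**
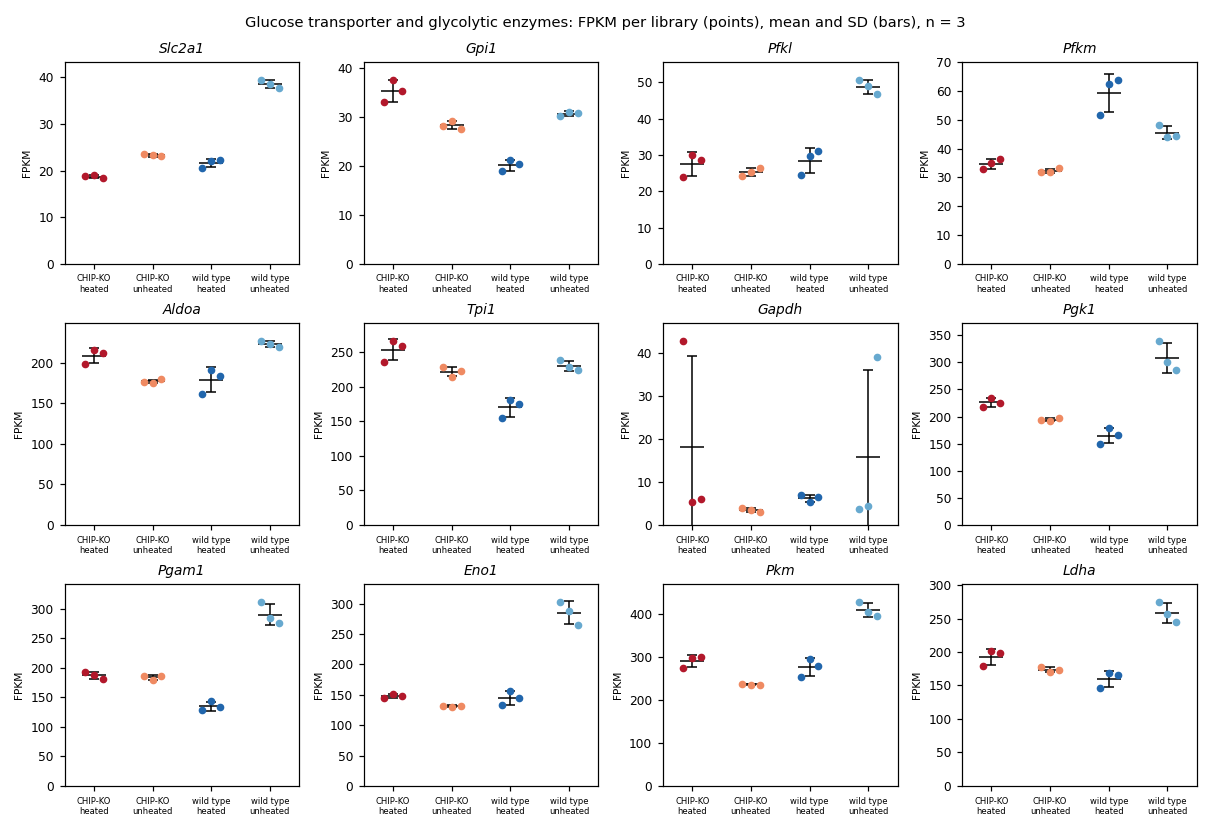
FPKM of Slc2a1 and 11 glycolytic enzymes by library (points), with the mean and SD of each group of 3 (bars); each panel has its own axis from 0. Unheated wild-type cells are highest for Slc2a1, Pfkl, Pgk1, Pgam1, Eno1, Pkm and Ldha, and Gapdh has 1 library far above the other 2 in heated CHIP-KO and in unheated wild-type cells.

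The enzymes of lower glycolysis included the largest falls of the enzymes with heat in wild type, those of Pgam1, Eno1 and Pgk1. Pgk1, which makes the first ATP of the pathway (chrX:106187100-106203699, + strand), stood at 218, 235 and 225 FPKM in heated CHIP-KO cells, 195, 192 and 197 in unheated CHIP-KO cells, 149.9, 179 and 165 in heated wild-type cells and 339, 302 and 286 in unheated wild-type cells. No group overlapped another, with unheated wild type highest and heated wild type lowest. It fell with heat in wild type (-0.90 ± 0.08, adjusted p = 3.02e-06), and the change differed from that in CHIP-KO cells by 1.12 ± 0.11, adjusted p = 2.57e-05. CHIP-KO cells were higher than wild-type cells after heat (0.46 ± 0.08, adjusted p = 6.28e-04) and lower without it (-0.66 ± 0.08, adjusted p = 3.40e-05).

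Pgam1, phosphoglycerate mutase (chr19:41911871-41918664, + strand), was also highest in unheated and lowest in heated wild-type cells. It stood at 193, 188 and 181 FPKM in heated CHIP-KO cells, 185, 179 and 187 in unheated CHIP-KO cells, 128, 143 and 134 in heated wild-type cells and 311, 284 and 276 in unheated wild-type cells. The CHIP-KO groups overlapped and lay between the heated and the unheated wild-type libraries. Its change with heat in wild type was -1.10 ± 0.06, adjusted p = 1.44e-07, against 0.03 ± 0.06 in CHIP-KO cells (95% interval -0.11 to 0.16), and the difference between them was 1.12 ± 0.09, adjusted p = 4.89e-06. The genotypes differed by 0.47 ± 0.06, adjusted p = 1.08e-04 after heat and by -0.66 ± 0.06, adjusted p = 6.13e-06 without.

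Eno1, the widespread enolase (chr4:150236721-150248879, + strand), stood at 145, 151 and 148 FPKM in heated CHIP-KO cells, 132, 129.8 and 132 in unheated CHIP-KO cells, 133, 156 and 144 in heated wild-type cells and 302, 288 and 265 in unheated wild-type cells. Unheated wild-type cells were well above the other 3 groups. It fell with heat in wild type (-0.98 ± 0.07, adjusted p = 6.10e-07), the change differed between genotypes by 1.15 ± 0.09, adjusted p = 7.25e-06, and CHIP-KO cells were lower without heat (-1.11 ± 0.07, adjusted p = 1.52e-07). After heat the genotypes differed by 0.04 ± 0.07 (95% interval -0.11 to 0.18).

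Eno2, the neuronal enolase (chr6:124760053-124769673, - strand), had the opposite order. It stood at 8.36, 9.63 and 10.02 FPKM in heated CHIP-KO cells, 11.4, 10.98 and 10.6 in unheated CHIP-KO cells, 8.63, 8.52 and 9.55 in heated wild-type cells and 3.25, 4.32 and 4.18 in unheated wild-type cells. Unheated wild-type cells were below all others. Eno2 rose with heat in wild type (1.01 ± 0.09, adjusted p = 4.42e-06) and was higher in CHIP-KO than in wild-type cells without heat (1.29 ± 0.09, adjusted p = 5.88e-07). Its change with heat in CHIP-KO cells was -0.21 ± 0.09, adjusted p = 0.125, and the difference between the changes was -1.23 ± 0.13, adjusted p = 4.19e-05.

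Pkm, pyruvate kinase, had the highest mean FPKM of the members in every group (chr9:59656368-59679375, + strand). It stood at 275, 296 and 299.97 FPKM in heated CHIP-KO cells, 237, 235 and 235 in unheated CHIP-KO cells, 254, 295 and 279 in heated wild-type cells and 426, 403 and 396 in unheated wild-type cells. It fell with heat in wild type (-0.56 ± 0.06, adjusted p = 2.66e-05) and was lower in CHIP-KO than in wild-type cells without heat (-0.79 ± 0.06, adjusted p = 2.10e-06). In CHIP-KO cells the heated libraries were above the unheated ones (0.30 ± 0.06, adjusted p = 0.00858), but the sign turned under quantile normalization (-0.014) and equal-sum scaling (-0.039). The changes with heat differed by 0.86 ± 0.09, adjusted p = 4.55e-05, and after heat the genotypes overlapped (0.07 ± 0.06, 95% interval -0.07 to 0.22).

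Lactate dehydrogenase is built from the A chain, which favours lactate formation, and the B chain of heart muscle. Ldha (chr7:46841475-46855627, + strand) stood at 179, 201 and 199 FPKM in heated CHIP-KO cells, 177, 169.8 and 174 in unheated CHIP-KO cells, 146, 168 and 165 in heated wild-type cells and 274, 256 and 244 in unheated wild-type cells. No group of CHIP-KO libraries overlapped a wild-type group at the same temperature. Ldha fell with heat in wild type (-0.69 ± 0.07, adjusted p = 1.20e-05), and the change differed from that in CHIP-KO cells by 0.84 ± 0.10, adjusted p = 1.00e-04. It was higher in CHIP-KO than in wild-type cells after heat (0.27 ± 0.07, adjusted p = 0.00979) and lower without heat (-0.57 ± 0.07, adjusted p = 5.85e-05).

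Ldhb (chr6:142490249-142507957, - strand) had the largest difference between genotypes of the members. It stood at 13.1, 14.3 and 14.3 FPKM in heated CHIP-KO cells, 12.5, 11.5 and 14.5 in unheated CHIP-KO cells, 1.68, 1.85 and 2.30 in heated wild-type cells and 0.687, 0.293 and 0.330 in unheated wild-type cells. All CHIP-KO libraries were above all wild-type ones, and the 3 unheated wild-type values rest on 17, 9 and 11 fragments. The genotypes differed by 2.34 ± 0.12, adjusted p = 4.74e-08 after heat and by 3.27 ± 0.12, adjusted p = 1.88e-09 without. Ldhb rose with heat in wild type (1.04 ± 0.12, adjusted p = 2.24e-05), its change in CHIP-KO cells was 0.11 ± 0.12 (95% interval -0.15 to 0.37), and the difference of these was -0.93 ± 0.16, adjusted p = 0.00130.

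Gapdh, the dehydrogenase between Tpi1 and Pgk1 in the pathway and a common reference gene (chr6:125161715-125166467, - strand), stood at 42.6, 5.25 and 6.10 FPKM in heated CHIP-KO cells, 3.92, 3.42 and 3.06 in unheated CHIP-KO cells, 6.87, 5.29 and 6.44 in heated wild-type cells and 3.73, 4.48 and 38.99 in unheated wild-type cells. Heated CHIP-KO replicate 1 and unheated wild-type replicate 3 were far above the other 10 libraries, which lay at 3.06 to 6.87 FPKM. Tpi1 and Pgk1, its neighbours in the pathway, stood at 154 to 266 and 150 to 339 FPKM over all libraries. The Gapdh row may therefore not give the level of Gapdh mRNA, in the low or the high libraries, and this was not tested. Its changes of 1.49 ± 0.82 with heat in CHIP-KO, -0.50 ± 0.82 in wild type, 0.80 ± 0.82 between genotypes after heat and -1.18 ± 0.82 without were not called, with wide intervals such as -0.32 to 3.29 for the first. Eno1, Tpi1, Pgam1, Pgk1, Ldha and Gapdh have pseudogene or retrogene copies in the table, among which reads may be split. Of the Gapdh copies looked up by name, Gapdh-ps14 held 0 to 2 and Gapdh-ps15 0 to 5 fragments per library. Copies under other names were not looked up. Eno1b, such a copy of Eno1, averaged 10.8 ± 0.120 FPKM in heated CHIP-KO cells, 9.72 ± 0.227 in unheated CHIP-KO cells, 10.5 ± 1.37 in heated wild-type cells and 20.4 ± 2.19 in unheated wild-type cells (SD, n = 3 each).

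Summed over the 16 glycolytic enzyme genes other than Gapdh, levels came to 1595, 1719 and 1688 FPKM in heated CHIP-KO cells, 1477, 1442 and 1477 in unheated CHIP-KO cells, 1270.5, 1476 and 1412 in heated wild-type cells and 2291, 2154 and 2078 in unheated wild-type cells. The unheated wild-type sums were above all others, heated CHIP-KO sums were above unheated ones, and the heated wild-type and unheated CHIP-KO sums overlapped. With libraries scaled to an equal sum of FPKM the order within CHIP-KO cells turned. The sums were then 1447, 1517 and 1470.4 FPKM in heated CHIP-KO cells, 1657, 1611 and 1666 in unheated CHIP-KO cells, 1225, 1330.1 and 1320.5 in heated wild-type cells and 2470, 2395 and 2307 in unheated wild-type cells. On that scale no group overlapped another, with unheated wild type still highest and heated wild type lowest.

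Isoenzymes of one step moved in different directions, and their shares of the summed FPKM differed between groups. Eno2 made up 5.47%, 6.005% and 6.34% in heated CHIP-KO cells, 7.94%, 7.80% and 7.40% in unheated CHIP-KO cells, 6.11%, 5.18% and 6.22% in heated wild-type cells and 1.06%, 1.48% and 1.56% in unheated wild-type cells of the enolase sum. The unheated wild-type shares were lowest and the unheated CHIP-KO shares highest, without overlap. Ldhb made up 6.83%, 6.63% and 6.70% in heated CHIP-KO cells, 6.60%, 6.37% and 7.69% in unheated CHIP-KO cells, 1.14%, 1.09% and 1.37% in heated wild-type cells and 0.250%, 0.114% and 0.135% in unheated wild-type cells of the lactate dehydrogenase sum, which separated the genotypes completely. Slc16a3 made up 9.38%, 10.9% and 11.3% in heated CHIP-KO cells, 18.4%, 16.98% and 17.8% in unheated CHIP-KO cells, 2.59%, 1.61% and 2.13% in heated wild-type cells and 2.38%, 1.95% and 2.85% in unheated wild-type cells of the sum with Slc16a1, again with no overlap of genotypes.

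Pfkl averaged 41.1% ± 2.01 of the phosphofructokinase sum in heated CHIP-KO cells, 40.7% ± 0.672 in unheated CHIP-KO cells, 31.01% ± 0.404 in heated wild-type cells and 49.98% ± 0.786 in unheated wild-type cells (SD, n = 3 each). The heated wild-type shares were all below the unheated ones, and the CHIP-KO shares overlapped. Hk2 averaged 19.9% ± 3.53 of the hexokinase sum in heated and 19.2% ± 1.11 in unheated CHIP-KO cells, against 10.7% ± 3.32 in heated and 12.7% ± 1.37 in unheated wild-type cells, and all CHIP-KO shares were above all wild-type ones. Aldoc averaged 0.254% ± 0.0461 of the aldolase sum in heated and 0.202% ± 0.00766 in unheated CHIP-KO cells, against 1.60% ± 0.170 in heated and 0.507% ± 0.228 in unheated wild-type cells. With 3 libraries against 3, an exact two-sided permutation test cannot go below p = 0.1, which is the value for each pair of groups described here as not overlapping.

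**Figure D3:**
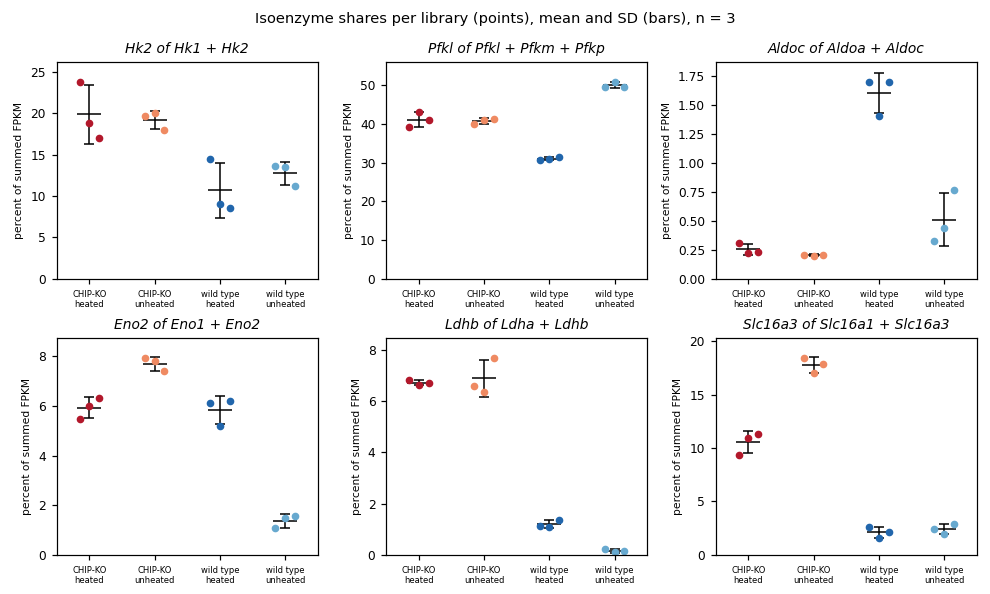
Share of 1 isoenzyme or transporter in the summed FPKM of its family by library (points), with the mean and SD of each group of 3 (bars), in percent from 0. The Hk2, Ldhb and Slc16a3 shares of all CHIP-KO libraries are above those of all wild-type libraries, and the Eno2 share is lowest in unheated wild type.

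Pfkfb3 and Pfkfb4 make and remove fructose-2,6-bisphosphate, the main activator of phosphofructokinase. Pfkfb3 (chr2:11471433-11554077, - strand) stood at 3.35, 2.58 and 2.40 FPKM in heated CHIP-KO cells, 1.999, 2.11 and 2.40 in unheated CHIP-KO cells, 4.74, 3.19 and 2.58 in heated wild-type cells and 1.55, 1.70 and 1.55 in unheated wild-type cells. Both heated groups had their highest value in replicate 1, and all heated wild-type libraries were above the unheated ones. It rose with heat in wild type (0.76 ± 0.15, adjusted p = 0.00122), while the change in CHIP-KO cells was 0.25 ± 0.15 (95% interval -0.09 to 0.58). Pfkfb4 was at 2.76 to 4.43 FPKM. Its change with heat in wild type (-0.24 ± 0.09, adjusted p = 0.0440; over all alternatives -0.43 to -0.15, adjusted p up to 0.155) was not called in 12 of 23 alternatives, among them leaving out any 1 of several libraries of each genotype, and was -0.15 without heated wild-type replicate 1.

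Pdk1, a hypoxia target, keeps pyruvate out of mitochondria by inactivating pyruvate dehydrogenase (chr2:71873224-71903858, + strand). It stood at 2.97, 3.31 and 3.59 FPKM in heated CHIP-KO cells, 2.98, 3.37 and 3.58 in unheated CHIP-KO cells, 3.70, 4.25 and 4.08 in heated wild-type cells and 5.46, 4.66 and 4.72 in unheated wild-type cells. All CHIP-KO libraries were below all wild-type ones, and the heated wild-type libraries lay between those and the unheated ones. Pdk1 was lower in CHIP-KO than in wild-type cells without heat (-0.46 ± 0.08, adjusted p = 7.94e-04). Its fall with heat in wild type (-0.25 ± 0.08, adjusted p = 0.0239; over all alternatives -0.44 to -0.14, adjusted p up to 0.196) was not called without replicate 1 of either wild-type group (without both, -0.14), and the lower level in heated CHIP-KO than in heated wild-type cells (-0.22 ± 0.08, adjusted p = 0.0481; over all alternatives -0.36 to -0.17, adjusted p up to 0.163) was not called when single libraries of any group, such as heated CHIP-KO replicate 1, were left out.

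Hif1a encodes the oxygen-regulated HIF subunit, which is controlled mainly through the stability of its protein (chr12:73901375-73947530, + strand). It stood at 33.5, 28.3 and 26.4 FPKM in heated CHIP-KO cells, 32.3, 33.2 and 32.96 in unheated CHIP-KO cells, 47.9, 40.3 and 37.4 in heated wild-type cells and 40.7, 40.6 and 41.7 in unheated wild-type cells. All CHIP-KO libraries were below all wild-type ones, and replicate 1 was highest in both heated groups. Its changes with heat were -0.16 ± 0.09 in CHIP-KO cells (95% interval -0.37 to 0.05) and 0.02 ± 0.09 in wild-type cells (95% interval -0.18 to 0.23). It was lower in CHIP-KO cells after heat (-0.50 ± 0.09, adjusted p = 0.00143) and without (-0.31 ± 0.09, adjusted p = 0.0173), the second not called without unheated CHIP-KO replicate 1 (adjusted p = 0.0513).

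The prolyl hydroxylases PHD2 (Egln1) and PHD3 (Egln3) oppose HIF1A, and Egln3 is itself a strong hypoxia target. Egln1 (chr8:124908587-124949324, - strand) stood at 18.3, 14.7 and 15.2 FPKM in heated CHIP-KO cells, 16.02, 15.97 and 15.8 in unheated CHIP-KO cells, 14.8, 12.3 and 12.5 in heated wild-type cells and 22.2, 21.3 and 18.8 in unheated wild-type cells. Every heated wild-type library was below every unheated one (-0.62 ± 0.09, adjusted p = 1.76e-04), the change in CHIP-KO cells was 0.01 ± 0.09 (95% interval -0.20 to 0.21), and the difference between them was 0.63 ± 0.13, adjusted p = 0.00358. Without heat it was lower in CHIP-KO cells (-0.36 ± 0.09, adjusted p = 0.00755); the higher level after heat (0.27 ± 0.09, adjusted p = 0.0384; over all alternatives 0.17 to 0.34, adjusted p up to 0.157) was not called without heated CHIP-KO replicate 1 (0.17), heated wild-type replicate 2 or 3, or any unheated CHIP-KO library.

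Egln3 (chr12:54178981-54203860, - strand) stood at 2.15, 1.52 and 1.59 FPKM in heated CHIP-KO cells, 1.17, 1.96 and 1.85 in unheated CHIP-KO cells, 3.70, 2.38 and 2.75 in heated wild-type cells and 1.69, 1.71 and 2.30 in unheated wild-type cells. Heated wild-type cells were highest, with replicate 1 above the others. Its rise with heat in wild type (0.44 ± 0.16, adjusted p = 0.0325; over all alternatives 0.25 to 0.60, adjusted p up to 0.243) was not called without replicate 1 of either wild-type group, unheated replicate 2 or heated replicate 3 (without both replicates 1, 0.25), and its lower level in heated CHIP-KO than heated wild-type cells (-0.51 ± 0.16, adjusted p = 0.0216; over all alternatives -0.79 to -0.38, adjusted p up to 0.0766) not without heated wild-type replicate 1 or heated CHIP-KO replicate 2 or 3.

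Of the hypoxia targets outside glycolysis, Vegfa, the main growth factor for blood vessels (chr17:46016993-46032369, - strand), was higher in both heated groups. It stood at 27.4, 22.4 and 20.4 FPKM in heated CHIP-KO cells, 13.8, 13.2 and 13.6 in unheated CHIP-KO cells, 28.5, 14.8 and 12.8 in heated wild-type cells and 6.84, 8.36 and 7.24 in unheated wild-type cells. Within each genotype no heated library overlapped the unheated ones, and heated wild-type replicate 1 was far above replicates 2 and 3. Vegfa rose with heat in wild type (1.13 ± 0.23, adjusted p = 0.00125; 0.75 without both wild-type replicates 1) and in CHIP-KO cells (0.74 ± 0.23, adjusted p = 0.0415; over all alternatives 0.42 to 0.83, adjusted p up to 0.146), the second not called when any 1 CHIP-KO library or unheated wild-type replicate 2 or 3 was left out. The changes with heat differed by -0.40 ± 0.32 (95% interval -1.10 to 0.31), which was not called. Without heat Vegfa was higher in CHIP-KO cells (0.78 ± 0.23, adjusted p = 0.0141).

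Adm, the vasodilator peptide adrenomedullin (chr7:110627661-110629820, + strand), stood at 0.967, 0.289 and 0.608 FPKM in heated CHIP-KO cells, 0.148, 0.0687 and 0.106 in unheated CHIP-KO cells, 2.27, 2.48 and 1.86 in heated wild-type cells and 1.72, 1.83 and 1.98 in unheated wild-type cells. All CHIP-KO libraries were below all wild-type ones, and the unheated CHIP-KO values rest on 6, 3 and 4 fragments. The genotypes differed by -0.9987 ± 0.14, adjusted p = 1.76e-04 after heat and by -1.36 ± 0.14, adjusted p = 1.30e-05 without. Its rise with heat in CHIP-KO cells (0.53 ± 0.14, adjusted p = 0.0219; over all alternatives 0.20 to 2.29, adjusted p up to 0.435) was not called without heated replicate 1 or 3 or any unheated CHIP-KO library.

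Car9, a carbonic anhydrase that is a classical HIF1A target (chr4:43506966-43513729, + strand), stood at 2.40, 1.76 and 2.39 FPKM in heated CHIP-KO cells, 1.72, 1.48 and 0.973 in unheated CHIP-KO cells, 4.68, 4.999 and 4.18 in heated wild-type cells and 2.26, 2.86 and 2.60 in unheated wild-type cells. Heated wild-type libraries were above all others. It rose with heat in wild type (0.65 ± 0.13, adjusted p = 0.00112) and was lower in CHIP-KO than in wild-type cells after heat (-0.82 ± 0.13, adjusted p = 3.68e-04) and without (-0.59 ± 0.13, adjusted p = 0.00286). The rise with heat in CHIP-KO cells (0.42 ± 0.13, adjusted p = 0.0408; over all alternatives 0.21 to 0.64, adjusted p up to 0.184) was not called without heated replicate 1 or 3, unheated replicate 2 or 3, or unheated wild-type replicate 3.

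Higd1a, a mitochondrial protein of the hypoxia response (chr9:121848563-121858362, - strand), also moved in opposite directions with heat in the 2 genotypes, except under equal-sum scaling. It stood at 6.57, 6.85 and 6.95 FPKM in heated CHIP-KO cells, 5.25, 5.77 and 5.16 in unheated CHIP-KO cells, 6.22, 5.86 and 6.03 in heated wild-type cells and 8.77, 8.67 and 10.1 in unheated wild-type cells. Unheated wild-type cells were above all other libraries and unheated CHIP-KO cells below them. It fell with heat in wild type (-0.53 ± 0.06, adjusted p = 3.49e-05), rose in CHIP-KO cells (0.29 ± 0.06, adjusted p = 0.00967, turning to -0.0054 under equal-sum scaling), and these changes differed by 0.82 ± 0.09, adjusted p = 5.80e-05. It was lower in CHIP-KO than in wild-type cells without heat (-0.67 ± 0.06, adjusted p = 6.57e-06). Its rise with heat in CHIP-KO cells was not called under equal-sum scaling or on recovered fragments.

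Bnip3 and Bnip3l, which direct mitochondria to autophagy, and Ndrg1, a stress-responsive differentiation gene, moved less. Bnip3 was at 12.4 to 17.03 FPKM and passed no test, with 95% intervals of -0.31 to 0.03 for heat in CHIP-KO and -0.21 to 0.13 in wild-type cells. Bnip3l was at 25.6 to 34.1 FPKM and was lower in CHIP-KO than in wild-type cells after heat (-0.25 ± 0.06, adjusted p = 0.00546); the changes with heat differed by -0.31 ± 0.08, adjusted p = 0.0133. Its rise with heat in wild type (0.16 ± 0.06, adjusted p = 0.0326; over all alternatives -0.07 to 0.22, adjusted p up to 0.344) turned to -0.069 under equal-sum scaling and was not called without unheated wild-type replicate 1 or 2 or heated wild-type replicate 2 or 3. Ndrg1 was at 10.8 to 17.4 FPKM and rose with heat in wild type (0.39 ± 0.09, adjusted p = 0.00443), though not under equal-sum scaling.

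**Figure D4:**
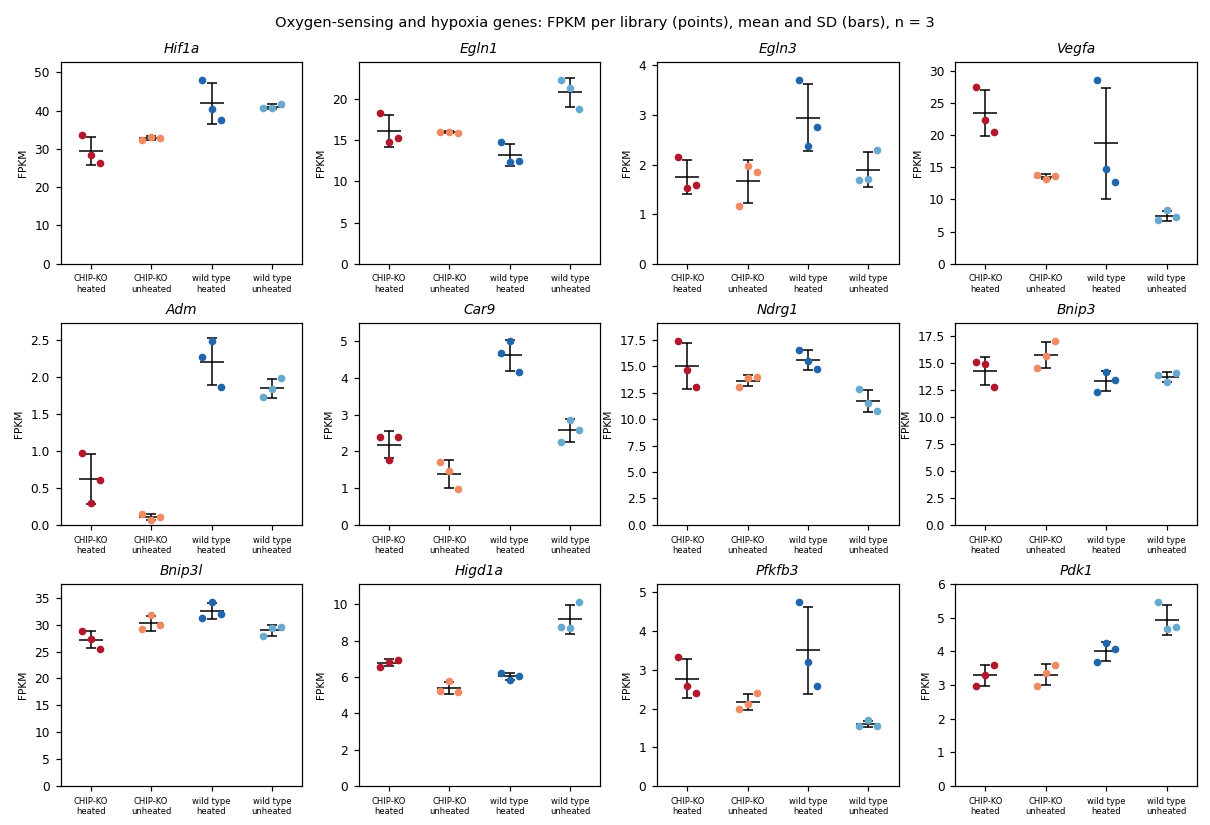
FPKM of oxygen sensors, hypoxia targets, Pfkfb3 and Pdk1 by library (points), with the mean and SD of each group of 3 (bars); each panel has its own axis from 0. Vegfa is higher in each heated group than in its unheated group, and Hif1a, Adm and Pdk1 are lower in all CHIP-KO libraries than in all wild-type ones.

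Neighbouring pathways were counted in the same tests, each share called being set beside that of all tested genes, and no list was tested as a set. The pentose phosphate pathway, which branches off glucose-6-phosphate to make NADPH and ribose, had 6 of 9 genes lower and 0 higher with heat in wild type (66.7% called, against 58.7% of all genes called and 30.5% lower). In CHIP-KO cells 1 was higher and 0 lower with heat (11.1%, against 20.0%). In CHIP-KO against wild type, 3 were higher and 1 lower after heat (44.4%, against 42.4%), and 0 higher and 5 lower without heat (55.6%, against 48.5%). Its first enzyme G6pdx changed by -0.75 ± 0.10, adjusted p = 6.38e-05 with heat in wild type and by -0.64 ± 0.10, adjusted p = 2.44e-04 in CHIP-KO against wild type without heat. For 6 of the 9 the change with heat was more positive in CHIP-KO cells, against 17.9% of all genes, as for Taldo1 (0.71 ± 0.10, adjusted p = 2.58e-04).

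Of 30 genes of pyruvate entry and the citric acid cycle, 3 were higher and 18 lower with heat in wild type, against 28.1% and 30.5% of all genes. In CHIP-KO cells 0 were higher and 3 lower, a smaller share called than the 20.0% of all genes. Between genotypes 6 were higher and 5 lower in CHIP-KO cells after heat (36.7% called, against 42.4% of all genes), and 4 and 19 without (13.3% and 63.3%, against 23.9% and 24.5%). Idh3a, a citric acid cycle dehydrogenase, fell with heat in wild type (-0.85 ± 0.05, adjusted p = 2.77e-07). Pdk4, a kinase that acts like Pdk1 on pyruvate dehydrogenase, was higher in CHIP-KO than in wild-type cells after heat (1.95 ± 0.10, adjusted p = 7.63e-08) and without (1.82 ± 0.10, adjusted p = 9.24e-08), the opposite sign to Pdk1.

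Among 27 tested hypoxia targets outside the 35 symbols, of 33 listed, 15 were higher and 5 lower with heat in wild type, 55.6% and 18.5% of the list against 28.1% and 30.5% of all genes. In CHIP-KO cells 6 were higher and 2 lower (22.2% and 7.41%, against 8.65% and 11.4%). After heat 5 were higher and 8 lower in CHIP-KO than in wild-type cells (18.5% and 29.6%, against 23.3% and 19.1%), and without heat 9 and 8 (33.3% and 29.6%, against 23.9% and 24.5%). Bhlhe40, a repressor of the clock and hypoxia programs, rose with heat in wild type (2.03 ± 0.20, adjusted p = 1.03e-05) and in CHIP-KO cells (1.24 ± 0.20, adjusted p = 0.00207). Lox, the collagen cross-linking oxidase, rose with heat in wild type (1.62 ± 0.04, adjusted p = 1.26e-09) and was lower in CHIP-KO cells after heat (-2.83 ± 0.04, adjusted p = 4.72e-12) and without (-1.23 ± 0.04, adjusted p = 2.39e-09). Tfrc, the transferrin receptor, fell with heat in wild type (-1.62 ± 0.10, adjusted p = 3.35e-07). Genes of both signs were called in each of these comparisons.

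Of 9 tested HIF subunits and regulators, 3 were higher and 1 lower with heat in wild type (44.4% called) and 0 and 1 in CHIP-KO cells (11.1%), both shares below the 58.7% and 20.0% of all genes. Hif1an, the asparaginyl hydroxylase that inhibits HIF1A, fell with heat in wild type (-0.74 ± 0.06, adjusted p = 3.04e-06) and in CHIP-KO cells (-0.51 ± 0.06, adjusted p = 3.73e-04). Epas1, which encodes HIF2A, was lower in CHIP-KO than in wild-type cells after heat (-0.9997 ± 0.07, adjusted p = 7.75e-07). Of 12 tested other glycolysis genes, of 23 listed, 4 were higher and 4 lower with heat in wild type (66.7% called, against 58.7% of all genes) and none was called in CHIP-KO cells (against 20.0%). Between genotypes 4 were higher and 3 lower after heat and 4 and 3 without (58.3% called in both, against 42.4% and 48.5%). Gluconeogenesis and glycogen had 12 tested genes of 18 listed. With heat in wild type 4 were higher and 4 lower (66.7% called, against 58.7% of all genes). In CHIP-KO cells 3 were higher and 0 lower (25.0%, against 20.0%). Between genotypes 6 were higher and 2 lower after heat (66.7%, against 42.4%) and 4 and 2 without (6 of 12, against 48.5%). Ppp1r3c, a glycogen-targeting phosphatase subunit, rose with heat in wild type (1.72 ± 0.09, adjusted p = 6.09e-08).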

How the data were processed

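RNA from 12 poly(A)-captured libraries of wild-type and CHIP-KO fibroblasts was sequenced and, per the submitters' processing notes, aligned with HISAT2; which counting tool, annotation and genome build followed is not given in the sources used here. The authors deposited FPKM per gene, the unit used throughout. FPKM times gene length gave whole fragments (within 0.01) for 100% of values, so depth could be recovered.

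Genes that reached 1 FPKM in 3 or more of the 12 libraries (13023 of 54532) were fitted in limma 3.58.1 (R 4.3.3) as log2(FPKM + 1), with a mean per group, a variance trend and all 12 libraries, and tested two-sided with Benjamini-Hochberg adjustment at 0.05. The fit was tested on data simulated with the same added variation for all genes and libraries, so libraries of unequal spread were not covered. Isoenzyme shares were compared by exact permutation, and motifs counted in Python 3.11.15. Member positions are those of the deposited table; 35 of 36 matched GENCODE M21. The members and lists were chosen with earlier results of these data known. Values per library are given for members called with a log2 change of at least 0.5 and no overlap of groups in 1 of the pairwise comparisons, and for Hif1a, Gapdh, Ldha, Slc2a1, Vegfa and Pdk1; of other lists, up to 3 called genes with the largest change per comparison may be named. Alternatives were other pseudocounts, filters, scalings, weights, a variance without trend, only the compared groups, voom on recovered fragments, a replicate block and leaving out libraries.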

Additional observations from a re-analysis of the deposited data

Results flagged for a closer look

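The change with heat differed between genotypes, by a test of the difference itself in limma, for 18 of the 34 tested members, against 35.2% of all tested genes. The values are differences of log2 changes, CHIP-KO minus wild type. They were positive for the enzymes Pkm (0.864), Pgk1 (1.12), Tpi1 (0.630), Pgam1 (1.12), Aldoa (0.555), Ldha (0.840), Eno1 (1.15), Pfkl (0.880) and Gpi1 (0.891), the transporters Slc2a1 (0.504) and Slc16a1 (0.665), and Egln1 (0.626) and Higd1a (0.817). For these 13, levels with heat moved down in wild-type cells and by less, or upward, in CHIP-KO cells, the upward changes depending on the scaling as given in the report. The values were negative for Bnip3l (-0.309), Eno2 (-1.23), Ldhb (-0.930), Slc16a3 (-0.370) and Aldoc (-0.724). Of the 18 differences, 16 passed in every alternative that could be fitted, and those of Slc16a3 and Aldoc did not. The unheated wild-type libraries enter each of these differences, and no cause was tested.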

How the results depend on the processing

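Counts of called members stayed within 1.5 times the reported count in every alternative for heat in wild type (21 to 29, reported 27), CHIP-KO against wild type without heat (16 to 27, reported 22) and after heat (14 to 25, reported 21), and the difference of changes with heat (16 to 23, reported 18). For heat in CHIP-KO cells the 9 calls (26.5% of members, against 20.0% of all genes) became 5 with no filter (13.9% against 8.62%), 19 under equal-sum scaling (55.9% against 67% of all genes), 18 with library weights (52.9% against 47.6%) and 14 without both wild-type replicates 1 (41.2% against 33.9%), and ranged from 5 to 12 when 1 library was left out. Among members called in either fit, equal-sum scaling reversed the sign with heat of Bnip3l in wild type (-0.069) and, in CHIP-KO cells, of Pkm (-0.039), Tpi1 (-0.15), Pgam1 (-0.31), Aldoa (-0.10), Ldha (-0.19), Eno1 (-0.17), Pfkm (-0.23), Pfkl (-0.21), Hk1 (-0.30), Gpi1 (-0.025), Slc16a1 (-0.24), Egln1 (-0.31), Higd1a (-0.0054) and Pfkp (-0.22). Among members called in neither, it also turned Pgk1 (-0.12), Ndrg1 (-0.20), Ldhb (-0.20), Hk2 (-0.22) and Egln3 (-0.16) in CHIP-KO cells, Hif1a (-0.21) and Pfkp (-0.057) in wild type, Eno1 (-0.035) and Eno2 (-0.0057) between genotypes after heat and Pfkfb4 (0.010) without. Quantile normalization reversed Pkm (-0.014) and Pgam1 (-0.20) with heat in CHIP-KO cells. The cause was not tested. Of the values of single members under all alternatives, 3676 kept direction and side of the threshold, 137 lost the call, 106 gained it, 17 reversed with a call in 1 of the fits, and 60 changed sign with no call in either.

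Deviations of same-numbered replicates correlated at -0.12 to 0.335, not above 0.1 for all pairs of any comparison. Between the heated groups they correlated at 0.335, 0.0207 and 0.231 for replicates 1, 2 and 3, and elsewhere at -0.12 to 0.0216. These values did not settle whether the numbers pair the libraries, and the main fit did not use the numbers. With a replicate block the members called were 27 with heat in wild type, 8 with heat in CHIP-KO cells, 23 and 20 between genotypes without and after heat, and 18 for the difference. The fit of only the compared groups could not be made for that difference, which needs all 4. Depth limits Ldhb in unheated wild type, Adm in unheated CHIP-KO cells and Slc16a3 in wild type, which rest on few fragments.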

Other observations

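Replicate 1 was the highest library of both heated groups for 9 of the 34 tested members (26.5%), against 23.6% of all tested genes. Replicate 2 was so for 7 (20.6%, against 10.6% of all tested genes) and replicate 3 for 3 (8.82%, against 12.3%). The 9 were Vegfa, Pfkfb3, Hif1a, Egln1, Egln3, Hk2, Ndrg1, Gapdh and the second Aldoa row, and the 7 were Aldoa, Eno1, Gpi1, Ldha, Pgk1, Slc16a1 and Tpi1. This pattern was looked for after the values of Vegfa were seen, and its part in the results was not tested.

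Gapdh in heated CHIP-KO replicate 1 was 6.99 times the next library of its group, and in unheated wild-type replicate 3 it was 8.71 times the next. Genes above 10 FPKM were also searched for 1 library over 4 times the next, with 1 added to each FPKM. By that measure Gapdh was the only such gene in unheated wild-type cells. In heated CHIP-KO cells there were 2, Gapdh and Gm12411. These values were singled out after they were seen.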
